A study of Mus musculus with 5 samples.

Results

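Proteasome subunits and the genes of class I antigen presentation were followed in CD3+ T cells sorted from the brains of mice after stroke. The genes were taken by symbol, as every measured Psma, Psmb, Psmc, Psmd or Psme subunit, every H2-D, H2-K, H2-Q, H2-T or H2-M gene, and B2m, Tap1, Tap2, Tapbp, Calr, Canx and Pdia3. This gave 48 of the 2926 mouse genes in the deposited table. Of these, 34 are proteasome genes and 14 are not, and 5 of the 34 (Psmb8, Psmb9, Psmb10, Psme1 and Psme2) make up the immunoproteasome and its activator. H2-Ke6 and H2-K2 match the symbols but are not presentation genes, and they are counted but described no further. By their chromosome in the table, 13 of the 48 lie on chromosome 17, which carries the mouse major histocompatibility complex.

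The mice were wildtype C57BL/6 animals whose stroke had been made by photothrombosis, a cortical infarct set off by light on a dye in the blood. T cells came from the ipsilateral hemisphere at day 14, and each of the 692 cells had been sorted by CD45 and CD3 into a well of a 384-well plate for SORT-seq. The 2 untrained samples (144 and 190 cells) had no running wheel training. The 3 trained samples (66 to 168 cells) came from mice that had trained on running wheels from day 2. The labels do not say whether samples of a group came from separate animals, so a p-value measures only the spread between these samples. No mice without stroke are among these samples.

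The table holds scores, not counts. Scores ran from -2.12 to 3.74, and their normalization is not given. A score is therefore read here as saying in which cells a gene is high, never which of a pair of genes is more abundant. The depth per sample is unknown. Untrained replicate 2 stood apart from the rest, because its mean score was 0 within 1e-06 for 1607 genes (54.9%), 32 of the 48 members among them, and for 0 genes in every other sample. Over all its cells, training differences of those members are therefore measured against that mean of 0 in 1 of the 2 untrained samples. Within the gates described below its values were not 0. For those members they still average to 0 over all its cells, so they depend on how its cells divide among the gates.

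T cells were split by their coreceptor scores. A cell was CD8-gated where its Cd8a and Cd8b1 scores averaged above 0 and its Cd4 score did not, and CD4-gated in the opposite case. This gave 23% of cells CD8-gated and 21.1% CD4-gated, with 57 cells above 0 for both and 330 for neither. Trained replicate 1 had the fewest, with 17 CD8-gated and 16 CD4-gated cells. Cells of neither gate made up 65.3% of untrained replicate 2, against 36.1% to 47% of the other samples. The 8 measured T cell markers (Cd3d, Cd3e, Cd3g, Cd247, Cd2, Lck, Thy1 and Lat) had a mean score of 0.212 ± 0.078 (SD, n = 5 samples) in CD8-gated cells and 0.187 ± 0.146 in CD4-gated cells. In the cells of neither gate it was -0.144 ± 0.040, although all cells had been sorted as CD3+.

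The proteasome is the protease that degrades ubiquitin-tagged proteins into peptides. Interferons induce 3 replacement catalytic subunits, encoded by Psmb8, Psmb9 and Psmb10, which take the places of the constitutive subunits encoded by Psmb5, Psmb6 and Psmb7, and they also induce the PA28 activator made of Psme1 and Psme2. The peptides pass into the endoplasmic reticulum through the Tap1 and Tap2 transporter and are loaded with the help of tapasin (Tapbp), calreticulin (Calr), calnexin (Canx) and the disulphide isomerase Pdia3. They are shown at the surface by the class I heavy chains H2-K1 and H2-D1 bound to beta-2 microglobulin (B2m). Lymphocytes carry the immunoproteasome without infection, and class I lets CD8+ T cells inspect every nucleated cell.

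The first question was how these genes differed between cells with a coreceptor score and cells without one. Immunoproteasome and classical class I genes were higher in gated cells (CD8-gated or CD4-gated) than in the cells of neither gate, in every sample. All 5 immunoproteasome genes and all 3 of B2m, H2-D1 and H2-K1 passed the test, and so did 4 of the 6 peptide loading genes and 19 of the 29 other proteasome genes (limma on mean scores with sample as a block, adjusted p under 0.05). Over all members 32 of 48 were higher (66.7%), where 59.9% of all 2923 genes tested were. None of the 48 was lower, against 4% of all genes, and 0 was also the count of lower members at an unadjusted p under 0.05. The share called was therefore near the background, and the groups are described here by the size of their differences. The median difference was 0.457 over the 3 classical class I genes, 0.30 over the 5 immunoproteasome genes, 0.134 over the 29 other proteasome genes and 0.117 over all genes. Within those 29 the median was 0.225 over the 11 subunits of the 20S core other than Psmb5, Psmb6 and Psmb7. It was 0.116 over the ATPases and 0.0915 over the other subunits of the 19S cap. These sizes are not divided by the spread of a gene's scores over cells.

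B2m, the light chain shared by class I molecules, had the largest difference of the 48. Its mean scores in gated cells were 0.176 and 0.343 for untrained replicates 1 and 2 and 0.292, 0.121 and 0.226 for trained replicates 1 to 3, the order kept below. In the cells of neither gate they were -0.237, -0.066, -0.277, -0.349 and -0.249 in the same order. The 5 gated values all lay above the 5 others, and the difference was 0.467 (SE 0.039, adjusted p = 1.32e-06). H2-K1, a classical heavy chain, differed by 0.296, 0.642, 0.506, 0.488 and 0.353, with a mean of 0.457 (SE 0.048, adjusted p = 6.96e-06). H2-D1, the other classical heavy chain, differed by 0.310, 0.428, 0.50, 0.261 and 0.360, with a mean of 0.372 (SE 0.042, adjusted p = 1.07e-05). No sample went the other way for any of these 3 genes.

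Among immunoproteasome genes Psmb8, the beta5i catalytic subunit, came first. It scored 0.135, 0.298, 0.306, 0.240 and 0.181 in gated cells and -0.130, -0.172, -0.324, -0.144 and -0.219 in neither gate, a difference of 0.430 (SE 0.047, adjusted p = 8.89e-06). Psme2, the beta chain of the PA28 activator, differed by 0.327, 0.417, 0.405, 0.413 and 0.359, which was the narrowest spread of the 5 (mean 0.384, SE 0.037, adjusted p = 4.66e-06). Gated cells of every sample were thus higher for both. Psmb10, the beta2i subunit, differed by 0.243, 0.226, 0.505, 0.346 and 0.181 (mean 0.30, adjusted p = 0.000144). Psme1, the alpha chain of PA28, differed by 0.249, 0.332, 0.265, 0.254 and 0.111 (mean 0.242, adjusted p = 0.000251). Psmb9, the beta1i subunit, had the smallest difference of the 5, at 0.115, 0.202, 0.335, 0.200 and 0.111 (mean 0.193, adjusted p = 0.00149). For all 5 genes trained replicate 1 or untrained replicate 2 gave the largest difference, and those 2 samples hold the smallest and the largest number of cells.

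The constitutive counterparts moved less. Psmb5 and Psmb7 passed with differences of 0.163 and 0.182, and Psmb6 did not (0.067, adjusted p = 0.237). Psmb5 rose by only 0.00838 in untrained replicate 1 and by 0.130 to 0.274 in the other 4 samples. Of the other 11 subunits of the 20S core, the barrel that holds the catalytic sites, 9 passed, led by Psmb1 (0.303, adjusted p = 8.78e-05), Psma2 (0.294), Psmb4 (0.257) and Psmb3 (0.248). Psmb1 was higher by 0.149, 0.390, 0.231, 0.415 and 0.331, so that its lowest value lay in untrained replicate 1. In the 19S cap, which unfolds substrates, 3 of 4 ATPases and 4 of 9 other subunits passed, with differences of at most 0.156 (Psmc3) and 0.221 (Psmd14, a deubiquitinase). Of the other activators Psme3 passed at 0.119 and Psme4 did not.

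**Figure D1:**
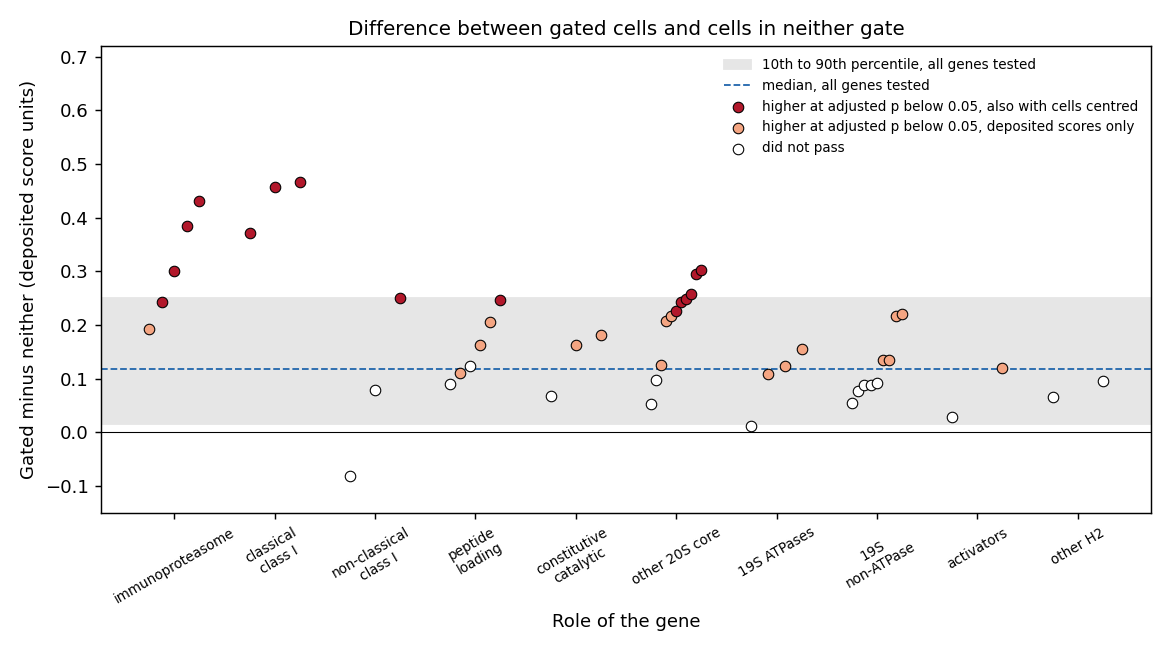
Difference in mean score (score units, y axis) between gated cells and cells of neither gate for the 48 genes by role (x axis), each point 1 gene over 5 samples. The shaded band spans the 10th to 90th percentile of all genes tested and the dashed line is their median (0.117). All 3 classical class I genes and 3 of the 5 immunoproteasome genes lie above the band, while most other proteasome genes lie within it.

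Peptide loading genes were split. Tap1 differed by 0.0972, 0.401, 0.278, 0.246 and 0.209 (mean 0.246, adjusted p = 0.000409), Tap2 by 0.126, 0.223, 0.381, 0.208 and 0.0884 (mean 0.205, adjusted p = 0.00149). Tapbp, the bridge between the transporter and the class I heavy chain, differed by 0.240, 0.176, 0.135, 0.0679 and 0.193 (mean 0.162, adjusted p = 0.00291). Every sample was higher in gated cells for these 3 genes. The general chaperones stood lower in the order, with Canx at 0.111 (adjusted p = 0.0317) and Calr (0.123) and Pdia3 (0.089) short of the threshold at adjusted p = 0.0592 and 0.0518. Of the non-classical heavy chains H2-T23, the Qa-1 molecule that presents leader peptides, was higher by 0.25 (adjusted p = 0.000552), H2-M3 did not pass (0.079), and H2-Q4 was the 1 member with a difference below 0 (-0.082, adjusted p = 0.147).

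Most genes of the table scored lower in the cells of neither gate, so the comparison was repeated after each cell's mean over all genes had been subtracted from its scores. The median of all genes then moved from 0.117 to -0.0024, and 15 of the 48 members were higher (31.2% of members against 11.7% of all genes) and 1, H2-Q4, was lower (against 8.76%). Still higher were B2m (0.347), H2-K1 (0.338), Psmb8 (0.311), Psme2 (0.264), H2-D1 (0.252), Psmb10 (0.181) and Psme1 (0.123), with adjusted p from 1.01e-05 to 0.0331. Psmb9 did not pass (0.0728, adjusted p = 0.169). Of the 29 other proteasome genes 6 passed, all of them 20S core subunits (Psma1, Psma2, Psma3, Psmb1, Psmb3 and Psmb4), and of the 6 loading genes only Tap1 did. H2-Q4 differed by -0.202 (adjusted p = 0.0149), below 0 in 5 of 5 samples. Under all 14 settings tried, 13 members stayed higher: B2m, H2-D1, H2-K1, H2-T23, Psmb8, Psme1, Psme2, Tap1 and 5 core subunits (Psma1, Psma2, Psmb1, Psmb3 and Psmb4).

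Other measures moved with the gates. The ribosomal protein list (72 genes) scored from 0.170 to 0.320 in CD8-gated, from -0.037 to 0.303 in CD4-gated and from -0.256 to -0.132 in the cells of neither gate. Cells high in the noncoding transcripts Kcnq1ot1 and A630089N07Rik (mean score above 1) made up 38.5% of the cells of neither gate, 15.7% of CD8-gated and 14.4% of CD4-gated cells. Without them 21 members were higher, Psmb9 among them (0.158, adjusted p = 0.0381) and Tapbp not (0.063, adjusted p = 0.434). Myeloid-high cells (mean of the 6 measured markers Cst3, Ctss, Tyrobp, Fcer1g, C1qb and Apoe above 1) numbered 39 in neither gate, 35 of them in untrained replicate 2, against 4 CD8-gated and 8 CD4-gated cells. Without them 37 members were higher. Further cell types were thinly covered, with no measured marker of B cells, neutrophils, astrocytes, neurons or endothelium.

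The immunoproteasome was then set directly against the other subunits by subtracting the mean score of the 29 other proteasome genes from that of the 5. This removes a shift of equal size in both groups, but not one that scales with how widely a gene's scores spread. In CD8-gated cells this contrast was 0.0891 and 0.0782 without training and 0.117, 0.121 and 0.0452 with it, with a mean of 0.090 ± 0.031 (SD, n = 5). In CD4-gated cells it was 0.103, 0.175, 0.119, 0.0891 and 0.0352, with a mean of 0.104 ± 0.050. In the cells of neither gate it was -0.0565, -0.0654, -0.119, -0.0471 and -0.0317, with a mean of -0.064 ± 0.033. The gated and ungated values of this contrast did not overlap, while CD8-gated and CD4-gated values did. No test was made on this contrast because its members had been chosen with earlier results known. The 29 genes pool core and cap subunits, and the split was less clear against the 11 other core subunits alone. In CD8-gated cells of untrained replicate 2 the immunoproteasome mean (0.0981) lay below theirs (0.116). It lay above theirs in the CD8-gated cells of every other sample and in all CD4-gated cells. In the cells of neither gate it lay below theirs in every sample.

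**Figure D2:**
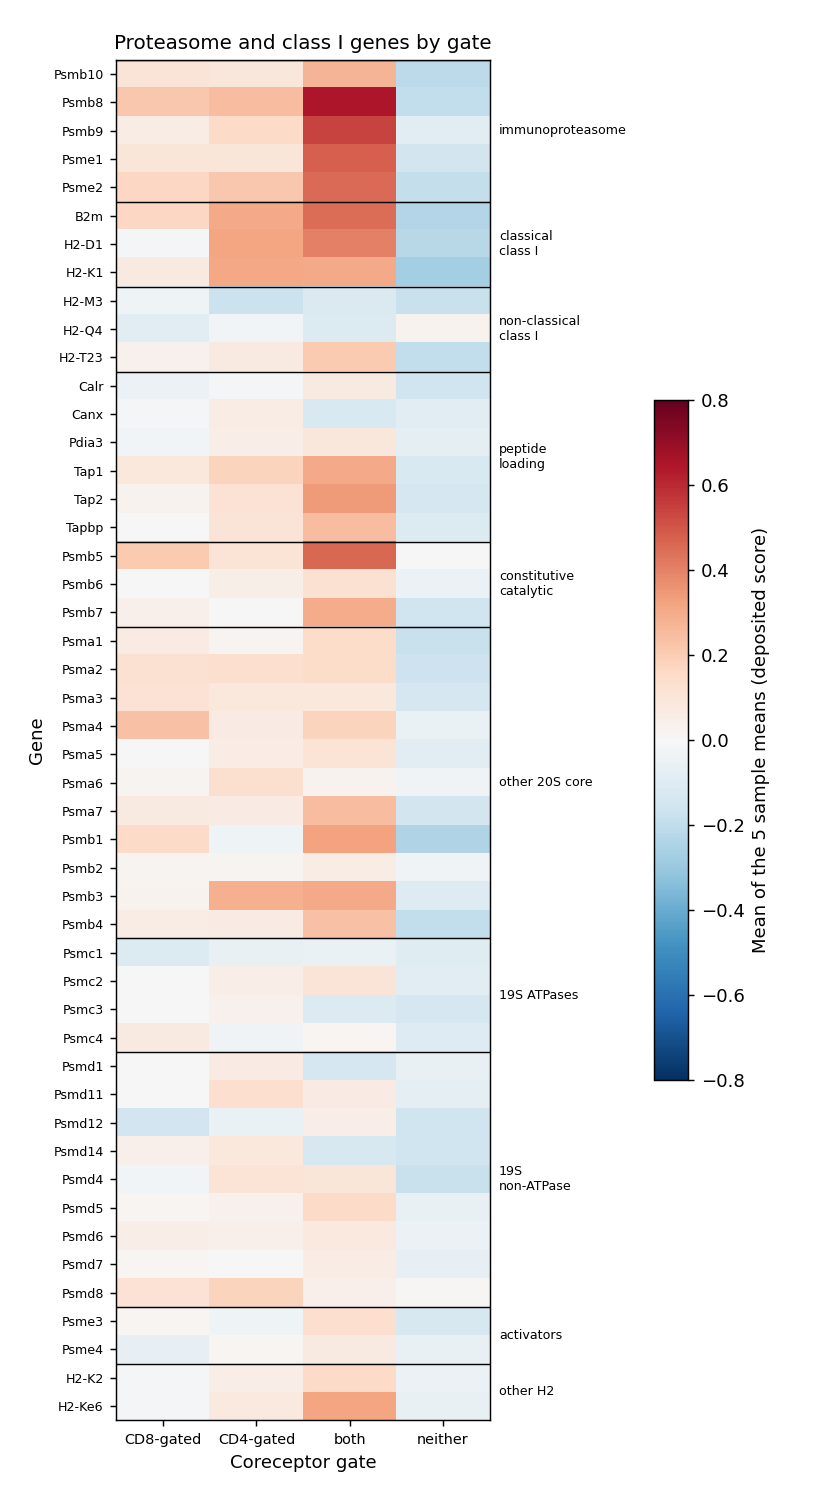
Mean of the 5 sample means (deposited score, colour) of each gene (rows, grouped by role) in CD8-gated and CD4-gated cells, cells of both gates and cells of neither (columns). Psmb8 reaches 0.647 in the cells of both gates and -0.198 in neither.

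The genes varied together from cell to cell in the same groups. Over the 1128 pairs of members the median of the mean within-sample Pearson r was 0.149, and the most alike pairs were H2-K1 with B2m (0.675), H2-D1 with B2m (0.628) and H2-K1 with H2-D1 (0.589). H2-K1 and H2-D1 are heavy chains that each pair with B2m. Psmb8 followed, with B2m (0.524) and with H2-D1 (0.518). After the subtraction of each cell's mean the median pair was at 0.0149 and the same 5 pairs led, from 0.368 to 0.561. These are descriptions over cells that share a library and a plate, with 66 to 190 cells a sample. They take gated and ungated cells together, so the difference between those cells enters them, and none was computed within a gate.

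Interferon-stimulated genes outside the set were then set beside the members. This list, like the members, was chosen with earlier results of these data known. As first written it held some of the members, which were left out here. Over 56 such genes, none of them a member, the mean score correlated across cells with that of the immunoproteasome at 0.591 to 0.706 in the 5 samples and with that of the other proteasome genes at 0.491 to 0.593. With each cell's mean removed the groups parted. The immunoproteasome kept 0.239 to 0.497, while the other proteasome genes lay between -0.069 and 0.074. The ranges did not overlap. Classical class I genes lay at 0.187 to 0.276 and peptide loading genes at 0.124 to 0.411. The ribosomal list, taken as a reference of abundant genes, followed the immunoproteasome at 0.312 to 0.490 on the same scale. It followed classical class I genes at 0.406 to 0.580 and the other proteasome genes at 0.187 to 0.356. The covariation was thus not limited to interferon-stimulated genes, and with the ribosomal list the ranges of both proteasome groups overlapped. These correlations also took gated and ungated cells together, so the difference between those cells enters them.

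Single genes of a role were close in some roles and spread in others. On the centred scale the 12 members closest to the interferon-stimulated list were Tapbp (mean r 0.265), Psmb8 (0.247), H2-T23 (0.243), H2-K1 (0.223), Psme2 (0.217), Psmb10 (0.213), Tap1 (0.205), Tap2 (0.189), H2-D1 (0.188), B2m (0.174), Psmb9 (0.170) and Psme1 (0.153). Psme1, the last of them, was at the 94.1st percentile of all genes, whose median was -0.0151. The 12 hold all 5 immunoproteasome genes, all 3 classical class I genes, both transporter chains and tapasin. Psmb5, which Psmb8 replaces, was at -0.0754 and Psmb6 at -0.0268, but Psmb7, the third constitutive catalytic subunit, was at 0.0855. The chaperones Calr and Canx were at -0.056 and -0.060, and Pdia3 was at 0.119. The lowest members were Psma6 (-0.160) and Psmc1 (-0.138). Among proteasome genes outside the immunoproteasome the highest was Psmb4 (0.141).

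**Figure D3:**
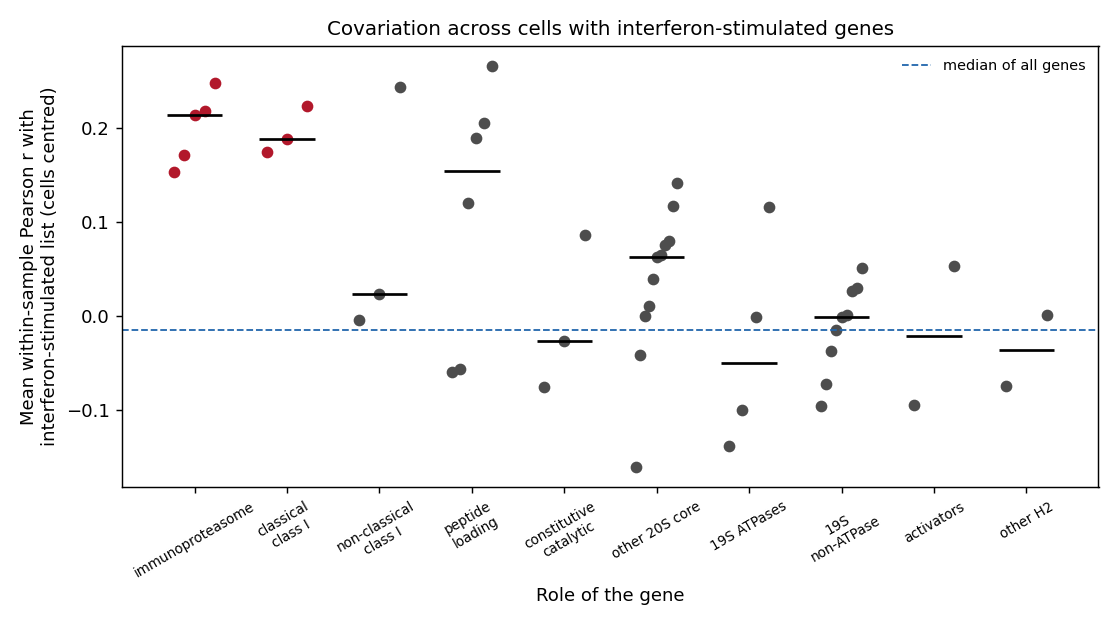
Mean within-sample Pearson r across cells between each gene and the mean of 56 interferon-stimulated genes, with cells centred (y axis), by role (x axis). Points are genes, black bars the median of a role and the dashed line the median of all genes (-0.0151). All immunoproteasome and classical class I points (red) lie between 0.153 and 0.247.

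Promoters were read for all members that had one, from 250 bases before to 50 bases after each RefSeq start on GRCm38.p6. Windows were found for 41 of the 48 members. The windows below are those of Psmb8, Psmb9 and Psme1, shown as immunoproteasome genes on 2 chromosomes, and of B2m. Capitals mark a match on either strand to GAAANNGAA, an interferon regulatory factor type of motif, or to TTCNNNGAA, a gamma-activated site type of motif. Psmb9 is at chr17:34187281-34187580 on the minus strand, Psmb8 at chr17:34197945-34198244, Psme1 at chr14:55578244-55578543 and B2m at chr2:122147437-122147736, all 3 on the plus strand.
Psmb9: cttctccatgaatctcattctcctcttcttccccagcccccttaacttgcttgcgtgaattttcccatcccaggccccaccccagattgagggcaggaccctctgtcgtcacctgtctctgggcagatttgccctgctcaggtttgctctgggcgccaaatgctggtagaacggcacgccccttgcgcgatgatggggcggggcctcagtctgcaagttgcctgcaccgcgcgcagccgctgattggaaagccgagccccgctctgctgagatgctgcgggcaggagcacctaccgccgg
Psmb8: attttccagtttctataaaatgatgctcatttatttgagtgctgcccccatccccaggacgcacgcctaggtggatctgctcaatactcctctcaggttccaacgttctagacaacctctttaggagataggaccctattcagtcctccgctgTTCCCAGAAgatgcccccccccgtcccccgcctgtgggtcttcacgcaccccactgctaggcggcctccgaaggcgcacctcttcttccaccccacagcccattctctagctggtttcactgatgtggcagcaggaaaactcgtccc
Psme1: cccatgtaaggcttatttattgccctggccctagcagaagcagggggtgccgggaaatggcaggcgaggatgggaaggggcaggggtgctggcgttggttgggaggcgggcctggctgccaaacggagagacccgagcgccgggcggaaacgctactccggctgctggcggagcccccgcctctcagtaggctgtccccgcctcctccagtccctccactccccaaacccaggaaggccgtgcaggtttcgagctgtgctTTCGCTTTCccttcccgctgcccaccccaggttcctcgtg
B2m: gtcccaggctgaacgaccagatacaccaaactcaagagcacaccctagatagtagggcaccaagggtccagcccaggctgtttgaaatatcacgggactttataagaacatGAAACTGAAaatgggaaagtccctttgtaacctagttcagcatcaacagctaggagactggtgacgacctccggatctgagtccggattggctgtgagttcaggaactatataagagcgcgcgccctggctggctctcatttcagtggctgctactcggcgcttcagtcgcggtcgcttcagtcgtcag

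The Psmb9 window overlaps that of Tap1 over most of its length, since these neighbours start back to back on opposite strands, and neither window holds either motif. The windows of Psmb10, Psme2, H2-D1 and H2-K1, not printed above, also hold no match. GAAANNGAA was found in 7 of the 41 members (17.07%): B2m, Psme1, H2-T23, Psmd4, Psmb3, Psmb4 and Psmc2, the last in 1 of its 2 windows. Among proteasome genes with a window it was in 1 of 5 of the immunoproteasome (20%) and in 4 of 24 others (16.67%). The same motif was in 8.56% of all 32851 promoter windows and in 9.857% of the 2232 genes of the table with a window. A form longer by 1 base had been counted first, and the shorter one was taken after those matches were seen. TTCNNNGAA was found in Psmb8 and H2-M3, or 4.878% of members with a window. It was in 8.737% of the genes of the table with a window and in 8.298% of all windows. Both motifs were searched on both strands, and a match describes letters only.

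By the likeness rule, the 5 genes outside the set whose scores followed the immunoproteasome mean most closely within samples were Rpl13a (mean r 0.645), Shisa5 (0.628), Actb (0.624), Tpt1 (0.621) and Rpl19 (0.609), where the median of the 2878 non-members was 0.238. For the mean of B2m, H2-D1 and H2-K1 they were Eef1a1 (0.673), Tpt1 (0.667), Tmsb4x (0.660), Actb (0.653) and mtCo1 (0.648). Most of these encode ribosomal, translation or cytoskeletal proteins. With cells centred the first 5 for the immunoproteasome were Shisa5 (0.459), Rpl13a (0.449), AW112010 (0.440), Ms4a4b (0.425) and Tmsb10 (0.417).

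The gates were then compared with each other within samples, to ask whether presentation genes differ between these T cell classes. Classical class I scores averaged lower in CD8-gated cells, but no member passed the test. The count was 0 of 48, against 0.171% of all 2923 genes, and 6 members had an unadjusted p under 0.05 (13.1% of all genes did). H2-D1 came closest. Its CD4-gated scores were 0.233, 0.629, 0.498, 0.096 and 0.138 in the order given above, and its CD8-gated scores were 0.0214, -0.0325, -0.027, -0.0514 and 0.0481. Every CD4-gated value lay above every CD8-gated one, and the difference was -0.327 (SE 0.080, limma adjusted p = 0.131). H2-D1 passed under 2 of the other settings, with scores divided by their SD (-0.493, adjusted p = 0.0120) and without cells high in the noncoding transcripts (-0.339, adjusted p = 0.0323).

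H2-K1 had CD4-gated scores of 0.060, 0.796, 0.388, 0.139 and 0.171 and CD8-gated scores of 0.023, 0.093, 0.088, 0.134 and 0.022. It was lower in the CD8-gated cells of 5 of 5 samples, with a difference of only -0.00469 in trained replicate 2, and the mean difference of -0.239 (SE 0.086, adjusted p = 0.264) was -0.123 without untrained replicate 2. B2m scored 0.207, 0.591, 0.521, 0.020 and 0.186 in CD4-gated and 0.147, 0.126, 0.076, 0.234 and 0.254 in CD8-gated cells. It was lower in CD8-gated cells of 3 samples and higher in 2, a difference of -0.138 (adjusted p = 0.543). The 3 genes together scored 0.672 in CD4-gated cells of untrained replicate 2 and 0.469 in those of trained replicate 1, against 0.085 to 0.167 in the other 3 samples. In CD8-gated cells they scored 0.045 to 0.108. The spread thus lay in the CD4-gated cells.

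The myeloid markers went the same way, with a CD8-gated minus CD4-gated difference below 0 in 5 of 5 samples (mean -0.208) and the largest gaps in untrained replicate 2 (-0.405) and trained replicate 1 (-0.419). Without myeloid-high cells H2-D1 differed by -0.305 and H2-K1 by -0.293. The 56 interferon-stimulated genes were also lower in CD8-gated cells of 5 of 5 samples (mean -0.096), with 18 of them at an unadjusted p under 0.05 and none at an adjusted one. Ribosomal genes were higher in 4 of 5 (mean 0.125).

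Immunoproteasome genes gave no such order. The CD8-gated minus CD4-gated differences were -0.0292 for Psmb8, -0.0941 for Psmb9, 0.0125 for Psmb10, 0.0024 for Psme1 and -0.0531 for Psme2, with adjusted p from 0.627 to 0.992 and samples on both sides of 0 for each. Psmb8 scored 0.030, 0.205, 0.368, 0.279 and 0.209 in CD8-gated and 0.243, 0.404, 0.241, 0.206 and 0.143 in CD4-gated cells. The 2 untrained samples were higher in CD4-gated and the 3 trained samples in CD8-gated cells. Tap1, Tap2 and Tapbp differed by -0.0945, -0.0863 and -0.0967 on average, with samples on both sides of 0 for each. All 6 loading genes had a mean difference below 0, as did 33 of the 48 members and 1797 of all 2923 genes.

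In the core of the proteasome Psmb1 went the other way from class I. It scored -0.131, 0.139, -0.0736, -0.067 and -0.0546 in CD4-gated and -0.026, 0.292, 0.107, 0.184 and 0.209 in CD8-gated cells. CD8-gated cells were higher in 5 of 5 samples, by 0.190 (SE 0.058, adjusted p = 0.219). Psma4 was higher by 0.168 in 4 of 5 samples, Psmb3 lower by 0.255 in 4 of 5 and Psmd4 lower by 0.132 in 5 of 5 (adjusted p from 0.289 to 0.359). Over all members 2 were higher in every sample (Psmb1 and 1 ATPase subunit), where 4.45% of all genes were, and 3 were lower in every sample, where 9.37% were.

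**Figure D4:**
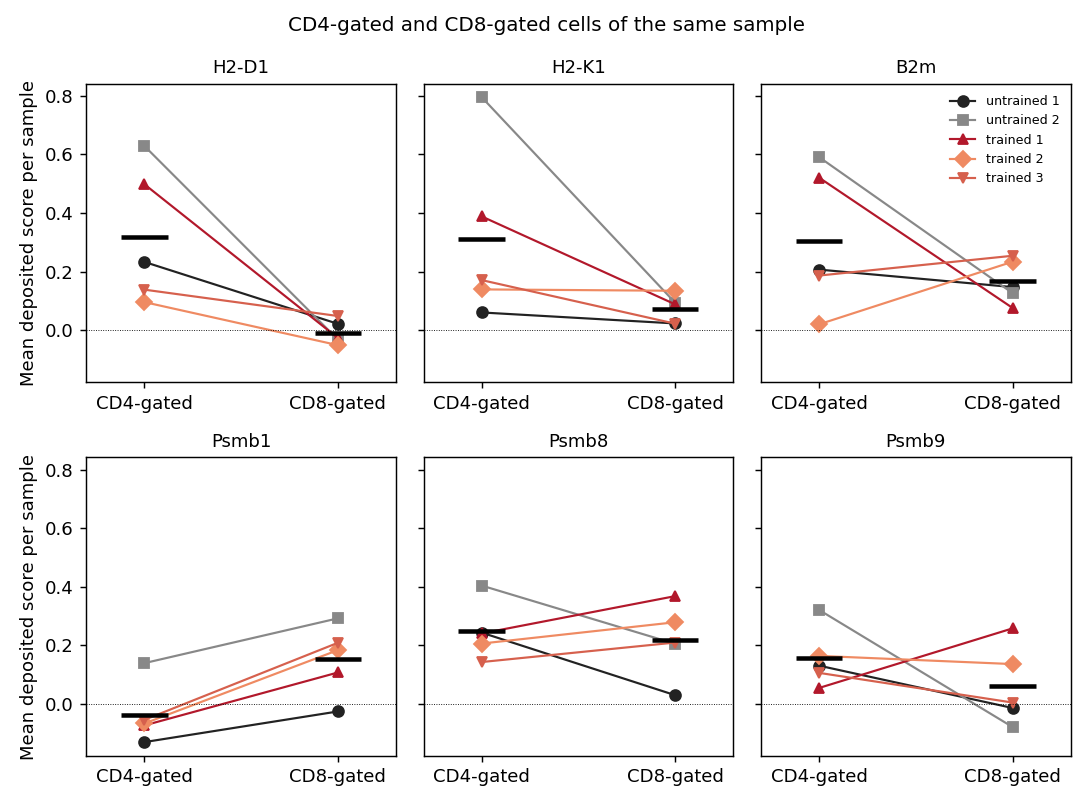
Mean deposited score per sample (y axis) in CD4-gated and CD8-gated cells, with a line joining the values of 1 sample and a black bar for the mean of the 5. H2-D1 falls in every sample, from a mean of 0.319 to -0.0083, Psmb1 rises in every sample, and the lines of Psmb8 and Psmb9 cross.

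The study's main contrast was wheel training after stroke. No member passed the test between trained and untrained samples, over all sorted cells, in CD8-gated cells or in CD4-gated cells. The count was 0 of 48 in each (limma adjusted p under 0.05), against 0% of all 2926 genes in each. Over all sorted cells the differences of all genes ran only from -0.154 to 0.135, and the normalization is not given. Whether the scaling had removed a training difference was not tested, so the count of 0 there cannot show that training had no effect. At an unadjusted p under 0.05 there were 3 members over all cells (7.72% of all genes), 6 in CD8-gated cells (8.92%) and 1 in CD4-gated cells (2.43%). With 2 samples against 3, groups that do not overlap are common. Over all cells 5 members lay higher in every trained sample (11% of all genes did) and 7 lower (14%). In CD8-gated cells 10 lay higher (21.6%) and 0 lower (3.49%), and in CD4-gated cells 1 lay higher (4.31%) and 6 lower (10.2%). These shares were near those of all genes.

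Over all sorted cells the constitutive subunit Psmb5 had the smallest p. It scored 0.0576 and 0 without training and 0.107, 0.131 and 0.128 after it, a difference of 0.093 (SE 0.025, adjusted p = 0.413), where the 0 is the value that untrained replicate 2 had for most genes. Psmd8, a 19S cap subunit, differed by 0.075 and also scored 0 there. Psmd12, another cap subunit, scored -0.0918 and -0.0661 without training and -0.142, -0.144 and -0.111 after it, a difference of -0.0535 (adjusted p = 0.609). The median difference was 0.0293 over the immunoproteasome, 0.0016 over the other proteasome genes and -0.0358 over classical class I genes.

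In CD8-gated cells Calr, a loading chaperone, had the smallest p. It scored -0.116 and -0.295 for untrained cells and 0.00413, 0.125 and 0.0428 for trained ones, a difference of 0.263 (SE 0.080, adjusted p = 0.520). Psmb8 scored 0.030 and 0.205 untrained and 0.368, 0.279 and 0.209 trained, a difference of 0.168 (adjusted p = 0.550). The 2 groups of Psmb8 values did not overlap, but only 0.209 against 0.205 kept them apart. Psmb9 scored -0.0141 and -0.0792 untrained and 0.258, 0.136 and 0.00447 trained, a difference of 0.179 (adjusted p = 0.550). Psmb5 (0.167), Psmd8 (0.249) and Psme3 (0.186) also had an unadjusted p under 0.05. The other 3 immunoproteasome genes differed by 0.0271 (Psme2), 0.0039 (Psme1) and -0.0397 (Psmb10). The median was 0.0438 over all 48 members and 0.0457 over all genes. The member with the smallest p among those lower was Psma7 (-0.172, adjusted p = 0.581).

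In CD4-gated cells the median difference was -0.0557 over the members and -0.028 over all genes, but its sign depended on the setting. Without untrained replicate 2, which leaves 1 untrained sample, the medians were 0.0074 and 0.0141. With all samples kept and medians over cells in place of means they were 0.0511 and 0.0495. Canx, the membrane-bound chaperone of new heavy chains, scored 0.059 and 0.337 in untrained cells and -0.066, -0.0098 and -0.0089 in trained ones, a difference of -0.226 (SE 0.096, adjusted p = 0.999). Psmb8 scored 0.243 and 0.404 untrained and 0.241, 0.206 and 0.143 trained. Psme1 scored 0.067 and 0.386 untrained and 0.048, 0.029 and -0.047 trained, a difference of -0.216. In each of these untrained replicate 2 was the highest of the 5 samples. That sample had 65.3% of its cells in neither gate, and whether this raised its CD4-gated scores was not tested. The 3 classical class I genes differed by -0.157 to -0.195 with overlapping groups, and 35 of 48 members (1840 of 2926 genes) had a difference below 0. Psmb10 was the 1 immunoproteasome gene with a difference above 0 (0.090).

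**Figure D5:**
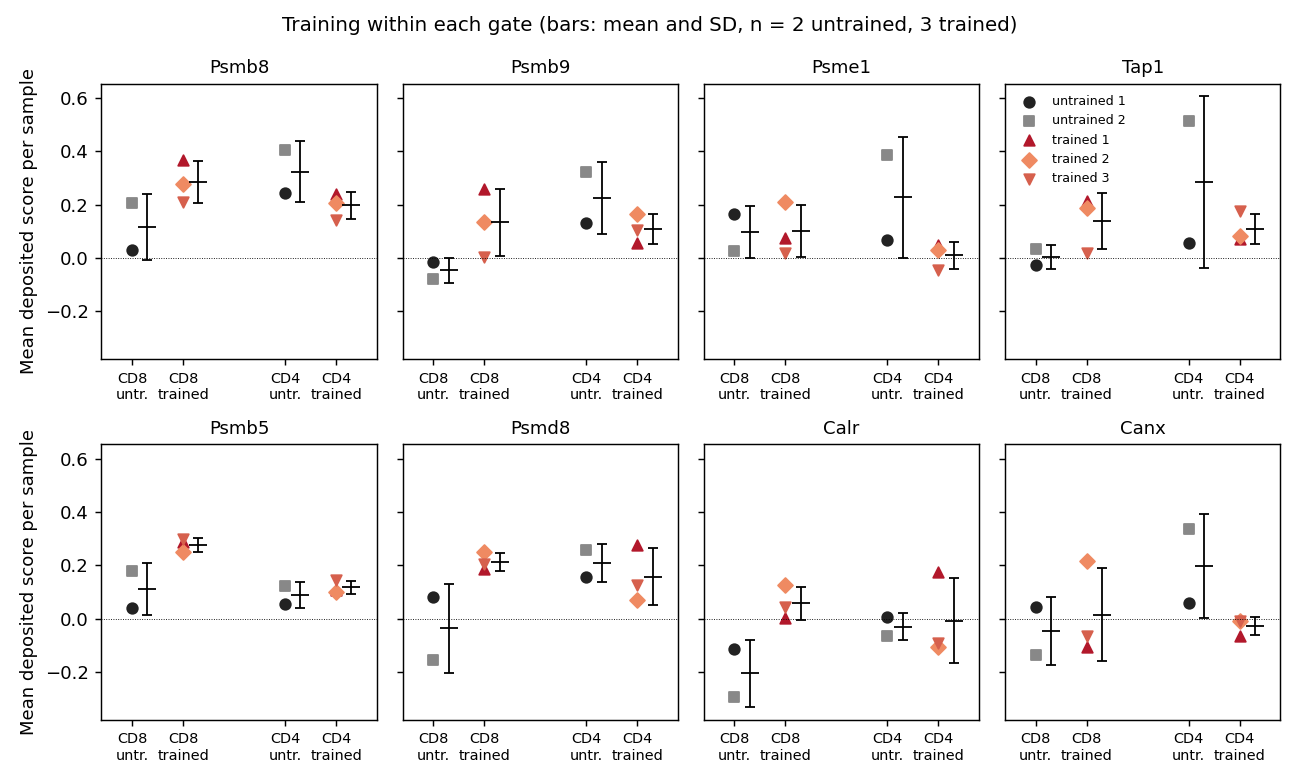
Mean deposited score per sample (y axis) for 8 genes in CD8-gated and CD4-gated cells of untrained and trained samples (x axis). Points are samples, and the bars give the mean and SD of 2 untrained and 3 trained samples. Trained points of Psmb8 and Psmb9 lie above the untrained ones in CD8-gated cells, by a gap of 0.209 against 0.205 for Psmb8, and no gene passed the test.

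Whether training acted differently in the gates was tested as the interaction of gate and training. No member passed (0 of 48, against 0% of all genes), and 4 had an unadjusted p under 0.05 (5.92% of all genes did): Psmb8 (0.295, SE 0.123), Psmb9 (0.297, SE 0.137), Psmd8 (0.30, SE 0.139) and Tap1 (0.311, SE 0.144), each with an adjusted p of 0.758. A positive value means that the trained minus untrained difference was higher in CD8-gated cells. For Psmb8 the CD8-gated minus CD4-gated differences averaged 0.0889 in the trained and -0.206 in the untrained samples. For Psmb9 they averaged 0.0247 and -0.272, and for Tap1 0.0301 and -0.281. The median interaction was 0.130 over the 48 members and 0.0778 over all genes.

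Genes around the pathway were compared between gated cells and the rest in the same way. Of 18 regulators of class I and interferon signalling 15 were higher in gated cells and 1 was lower, where 59.9% of all genes were higher. Among the 15 were Jak1 (0.264), a kinase of the interferon receptors, Irf1 (0.230) and Nlrc5 (0.182), the transactivator of class I genes. Ifnar1, a chain of the type I interferon receptor, was the lower one (-0.153, adjusted p = 0.0089). Of 15 ubiquitin genes 11 were higher, led by the ubiquitin fusion gene Rps27a (0.406), and Ube2l6, the conjugating enzyme of ISG15, was lower (-0.170, adjusted p = 0.0035). Of 10 genes of peptide trimming and folding 7 were higher, led by Hsp90ab1 (0.399). Of the 56 interferon-stimulated genes 46 were higher and 2 lower. With cells centred the counts higher fell to 1 of 18, 3 of 15, 2 of 10 and 10 of 56, where 11.7% of all genes were higher. Adrm1, a ubiquitin receptor of the proteasome, and Pomp, its assembly factor, are not matched by the symbols and were higher by 0.135 and 0.194. For training the numbers that passed were 0 in all 4 lists and all 3 cell sets, as for all genes.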

How the data were processed

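The values had been deposited as scores. The table is called a count matrix, but it holds no whole numbers and its deposited score per gene and cell ran from -2.12 to 3.74. Reads were processed with Cell Ranger, per the submitters' processing notes. Not given in the sources used here are its version, the genome build, the normalization and any integration step. A table of the first 384 columns was not used, and the 41 spike-ins were left out.

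Scores were averaged over the cells of each sample, and of each sample and gate, and fitted with limma 3.58.1 (R 4.3.3) over all genes, with Benjamini-Hochberg adjustment and a two-sided threshold of 0.05. Comparisons of gates had the sample as a block and left out Cd4, Cd8a and Cd8b1. A count test, which fits counts, could not be used. The fit was run on simulated data with large shifts and independent noise, which cannot show how it performs on smaller differences. Counts of columns matched to no sample were 0.

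The members, lists and tests were chosen with earlier results of these data known. Named genes were the immunoproteasome, B2m, H2-D1, H2-K1, Tap1, Tap2 and Tapbp, members past the threshold (those of the widest comparison partly by range) and the member with the smallest p in each direction. Settings tried were each sample left out, weighting by cells, scores divided by their SD, cells centred, medians, no replicate block, a gate at 0.25, and cells left out by marker score above 1. Promoter sequences are RefSeq's for GRCm38.p6.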

Additional observations from a re-analysis of the deposited data

How the results depend on the processing

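Of the 48 genes, 32 passed between gated cells and the rest. This count was 16 with cells centred (15 of them among the 32), 15 with medians over cells and 21 without cells high in noncoding transcripts. It was 28 to 36 with each sample left out, and 27 genes passed in every such fit. Between CD8-gated and CD4-gated cells the count of 0 became 1 (H2-D1) with scores divided by their SD and 1 without cells high in noncoding transcripts, and stayed 0 with each sample left out. For training in all cells, CD8-gated and CD4-gated cells and for the interaction it was 0 under every setting run. In the replicate block of samples, leaving out the block gave 37 genes between gated cells and the rest and 0 between the gates. Among single genes Psmb9, Tap2 and Tapbp did not pass with cells centred (adjusted p = 0.169, 0.131 and 0.483), nor Psmb10, Psmb9 and Tap2 with medians (0.0509, 0.0825 and 0.0616). The cause was not tested. Between gates no setting run turned the direction of the median member or of the 12 genes recomputed singly. The median training difference of the members turned in CD4-gated cells (-0.0557; 0.0074 without untrained replicate 2, 0.0511 with medians) and in CD8-gated cells (0.0438; -0.0016 with cells centred). Over all cells it was -0.0048 and turned without untrained replicate 2 (0.00049), without trained replicate 2 (0.0020), with medians (0.0312) and without myeloid-high cells (0.0050). The depth is unknown, so no limit from it can be given.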

Other observations

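The 57 cells above 0 for both coreceptor scores held the highest immunoproteasome scores on average. The mean of the 5 genes there was 0.159 and 0.677 without training and 0.359, 0.825 and 0.366 with it, from 21, 6, 8, 2 and 20 cells. The immunoproteasome minus the other proteasome genes was above 0 in all 5 samples (0.121 to 0.715, mean 0.367), and in the 2 samples with the most such cells it was 0.121 and 0.236. The ribosomal list (0.345 to 0.918) and the T cell markers (0.126 to 0.660) were also high there, and the myeloid markers lay between -0.547 and -0.050. These cells entered no comparison, and whether a well held more than 1 cell was not tested.

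Members also differed in how widely their scores spread over cells. The SD over all 692 cells ran from 0.415 for Psmb2 to 0.755 for B2m, with Psmb8 (0.688) and H2-K1 (0.672) next to B2m. The median was 0.567 over the members and 0.536 over all genes.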
